A study of Mus musculus and Homo sapiens with 34 samples.

Results

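The genes described here are 10 regulators and markers of the epithelial-mesenchymal transition (EMT): the adhesion genes Cdh1, Epcam and Cdh2, the structural genes Vim and Fn1, and the transcription factors Zeb1, Zeb2, Snai1, Snai2 and Twist1. They were chosen by name and looked up in 7 tables of raw read counts per gene that each list between 16553 and 26245 genes. All 10 have a row in the table of 3311 cells and in the 3 tables of human cells. The 2-week table of 3154 organoids lists 7 of them, and the tables of 1027B organoids and of 3154 organoids at 48 hours list 5 (Cdh1, Epcam, Vim, Fn1 and Snai1). A gene without a row was not analysed in that table.

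The study measured RNA by poly(A) sequencing in 34 libraries, 22 of mouse and 12 of human lung adenocarcinoma models, in 17 groups of 2. The 3154 model is a lung tumour organoid line with alleles that include p53frt, Rosa-FSF-CreERT2 and Hnf4aflox, in which 4-hydroxytamoxifen (4OHT) activates Cre and ethanol (EtOH) is its vehicle. It was harvested 2 weeks after 2 days of 4OHT (2 mM as labelled) or ethanol. In a separate 48-hour experiment 3154 organoids given 4OHT or ethanol received the small-molecule inhibitor MRTX1133 (3 nM) or its vehicle. The 1027B organoids and the 3311 cell line carry p53frt, Rosa-FSF-CreERT2, Foxa1flox and Foxa2flox in every group, and no label gives an agent that acts on the 2 floxed Foxa genes. 1027B organoids received vehicle, the MEK inhibitor trametinib (10 nM) or MRTX1133 (20 nM), and 3311 cells received vehicle or trametinib (50 nM), all for 48 hours. The human lines H358 and H1651 received vehicle or trametinib (20 nM) for 48 hours, and H1651 cells with a lentiviral, doxycycline-driven HNF4A construct were kept with 1 µg/mL doxycycline or without it for 7 days. Each model is 1 line, so the libraries of a group sample that line and not several tumours. The labels do not say whether the 2 libraries of a group came from separate cultures, and p-values then measure only the spread between these libraries.

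EMT is a change of state in which epithelial cells loosen their junctions and take on a migratory, matrix-rich form. E-cadherin, the product of Cdh1, holds neighbouring epithelial cells together, and factors of the Snail, Zeb and Twist families repress Cdh1 and other epithelial genes, in the Snail and Zeb families by binding E-boxes. In lung adenocarcinoma a mesenchymal state is known from poorly differentiated tumours, and signals through ERK and TGF-beta are known to act on it.

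Libraries held between 19692517 and 45284286 counted reads. The chi-square per degree of freedom between the 2 libraries of a group ran from 5.65 to 83.1, so every pair differed by more than sampling noise, with the widest gap in the 48-hour 3154 group given ethanol and vehicle. Hnf4a, the gene with the floxed allele, was at 371 ± 79.6 CPM (counts scaled to the TMM-adjusted size of their library; mean ± SD, n = 2 here and throughout) with ethanol and 60.7 ± 10.2 CPM with 4OHT at 2 weeks, and at 225 ± 6.60 and 49.9 ± 0.677 CPM at 48 hours with vehicle. HNF4A was at 41.5 ± 7.89 CPM without and 95.6 ± 1.73 CPM with doxycycline in H1651 cells. Epithelial markers were detected in every group: of 8 (Krt8, Krt18, Krt19, Cldn4, Cldn7, Esrp1, Grhl2 and Elf3), at least 7 reached 1 CPM. In these bulk libraries fewer cells of a type and less RNA per cell cannot be told apart.

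Of the 10 members 5 (Epcam, Vim, Zeb2, Snai1 and Twist1) matched a promoter in the RefSeq table. The promoters of 4 of them are shown because Snail and Zeb factors are known to bind the E-box letters CAGGTG and their complement CACCTG. Epcam is an epithelial gene, and Vim, Snai1 and Twist1 are 3 of the 5 members that were lower with trametinib in 3311 cells. Each sequence is the 250 bases before the gene's RefSeq start, on the gene's own strand, from RefSeq promoters of GRCm38.p6, with the E-box in capitals. They lie at chr17:87635729-87635978 (Epcam), chr2:167537945-167538194 (Snai1), chr2:13574061-13574310 (Vim) and chr12:33957421-33957670 (Twist1), all on the plus strand. The RefSeq start used for Vim lies inside the gene as GENCODE M21 gives it, which begins at position 13573927, so the Vim window is not upstream of that annotated start.
Epcam: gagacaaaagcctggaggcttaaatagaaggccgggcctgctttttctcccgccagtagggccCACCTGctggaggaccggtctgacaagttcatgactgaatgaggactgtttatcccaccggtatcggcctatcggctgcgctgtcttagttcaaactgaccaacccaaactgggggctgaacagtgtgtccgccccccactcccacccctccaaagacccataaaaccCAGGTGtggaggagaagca
Snai1: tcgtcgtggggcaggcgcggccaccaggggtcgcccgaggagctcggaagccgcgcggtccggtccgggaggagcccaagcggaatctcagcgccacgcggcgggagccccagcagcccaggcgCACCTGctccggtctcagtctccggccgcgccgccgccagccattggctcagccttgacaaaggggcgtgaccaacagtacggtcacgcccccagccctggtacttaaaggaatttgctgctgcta
Vim: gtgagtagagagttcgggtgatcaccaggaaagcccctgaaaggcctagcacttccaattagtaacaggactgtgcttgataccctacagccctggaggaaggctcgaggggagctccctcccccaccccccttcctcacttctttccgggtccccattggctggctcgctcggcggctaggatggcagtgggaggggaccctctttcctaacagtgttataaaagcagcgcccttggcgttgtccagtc
Twist1: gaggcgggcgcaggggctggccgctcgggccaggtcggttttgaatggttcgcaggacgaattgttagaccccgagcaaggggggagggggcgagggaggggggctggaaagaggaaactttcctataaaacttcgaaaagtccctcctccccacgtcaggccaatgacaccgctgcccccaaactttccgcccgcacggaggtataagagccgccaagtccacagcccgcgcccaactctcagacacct
Epcam held 2 E-boxes, starting 187 and 19 bases before the gene's start, and Snai1 held 1, starting 126 bases before it. Vim and Twist1 held none in this window, nor did the 4 promoters listed for Zeb2. Of all 32851 promoters of this length, 5657 (17.2%) held at least 1 such E-box on either strand. A match of letters is a description of the sequence and says nothing about binding.

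Under vehicle the mesenchymal genes spanned a wide range between models. Vim encodes vimentin, the intermediate filament of mesenchymal cells. Its level was 3292 ± 736 CPM in 3311 cells, 1723 ± 304 CPM and 1323 ± 55.2 CPM in the trametinib and doxycycline experiments on H1651, and 223 ± 27.8 CPM in H358. It was 51.6 ± 29.9 CPM in 1027B organoids, 3.91 ± 0.821 CPM in 3154 organoids at 2 weeks and 1.03 ± 0.745 CPM in those at 48 hours. No pair of neighbours in this order overlapped between libraries, although the tables were counted separately and mouse and human values are of different genes. Fn1 encodes fibronectin, a matrix protein made by mesenchymal and by many epithelial cells. Fn1 was at 2514 ± 23.7 CPM in 3311 cells and 1426 ± 85.5 CPM in 1027B organoids, and between 214 and 469 CPM on average in the other vehicle groups. Among these it was lowest in 3154 organoids at 2 weeks, then in the doxycycline experiment on H1651 and then in H358, with no overlap between neighbours, while H358, the trametinib experiment on H1651 and the 3154 organoids at 48 hours overlapped.

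The epithelial adhesion genes were at their lowest in H1651 cells. Cdh1 was at 1157 ± 62.3 CPM in 1027B organoids and 1154 ± 133 CPM in 3154 organoids at 48 hours, which overlapped, then at 696 ± 135 CPM in 3311 cells and 606 ± 21.5 CPM in 3154 organoids at 2 weeks, which also overlapped. CDH1 was at 448 ± 23.3 CPM in H358 and at 67.5 ± 0.530 and 50.7 ± 22.5 CPM in the doxycycline and trametinib experiments on H1651. Epcam encodes an epithelial surface adhesion protein. EPCAM was at 747 ± 14.1 CPM in H358 and at 1.77 ± 1.11 and 1.66 ± 0.582 CPM in the 2 H1651 controls, beside KRT8 at 2973 and 4100 CPM in the same H1651 groups. Epcam was between 458 and 627 CPM on average in the organoids and at 109 ± 32.9 CPM in 3311 cells. Cdh2 encodes N-cadherin, the cadherin of neural and mesenchymal cells. CDH2 was highest in H1651 (350 ± 17.7 CPM in the trametinib and 236 ± 12.7 CPM in the doxycycline experiment), then 40.1 ± 1.68 CPM in H358, and Cdh2 was at 26.0 ± 1.22 CPM in 3311 cells.

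The levels of the transcription factors also differed between models. Zeb1 and Zeb2 encode zinc-finger repressors of epithelial genes. ZEB1 was at 59.1 ± 5.87 and 58.6 ± 3.88 CPM in the 2 H1651 controls, which overlapped, Zeb1 at 47.4 ± 3.46 CPM in 3311 cells, and ZEB1 at 2.82 ± 1.50 CPM in H358. Zeb2 followed the same order, with 33.7 ± 0.915 and 27.3 ± 7.85 CPM in H1651, 11.7 ± 1.41 CPM in 3311 cells and 0.382 ± 0.119 CPM in H358. In the 3154 organoids at 2 weeks Zeb2 had 2 and 0 reads under ethanol and 4 and 7 reads after 4OHT, a ratio of 5.06 with a 95% exact counting interval from 1.10 to 47.0 that covers counting error only. Snai1 and Snai2 encode the Snail and Slug repressors. SNAI1 was at 11.2 ± 3.57 CPM in H358 and 6.85 ± 2.59 CPM in the trametinib experiment on H1651, which overlapped, and at 4.62 and 5.96 CPM in the doxycycline controls, both below H358. Snai1 was at 2.16 ± 0.574 CPM in 3311 cells, 1.04 ± 0.817 CPM and 0.336 ± 0.178 CPM in 3154 organoids at 2 weeks and 48 hours, and 0.154 ± 0.0122 CPM in 1027B organoids. SNAI2 was at 21.9 ± 3.92 CPM in H358 and at 12.6 ± 0.520 and 11.3 ± 4.42 CPM in H1651, but Snai2 had at most 3 reads in any mouse library that lists it. Twist1 encodes a basic helix-loop-helix factor of mesoderm. TWIST1 was at 32.8 ± 7.39 and 23.3 ± 6.81 CPM in H1651, and Twist1 at 1.61 ± 0.247 CPM in 3311 cells. TWIST1 had 0 reads in all 4 H358 libraries, where 3 reads would be 0.0645 to 0.118 CPM.

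Per length of gene, Vim and Fn1 were above Cdh1 and Epcam in 3311 cells, and Cdh2 and the transcription factors were far below them. In RPKM, which also divides the scaled counts by exon length, Vim stood at 694, Fn1 at 215, Cdh1 at 152 and Epcam at 49.8 on average under vehicle. Zeb1 was at 4.62, Cdh2 at 3.23, Snai1 at 1.33, Twist1 at 0.988 and Zeb2 at 0.587 RPKM. In 1027B organoids the order was Cdh1 at 253, Epcam at 209, Fn1 at 122, Vim at 10.9 and Snai1 at 0.0949 RPKM. Human genes were not given in RPKM because their lengths were not used here.

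**Figure D1:**
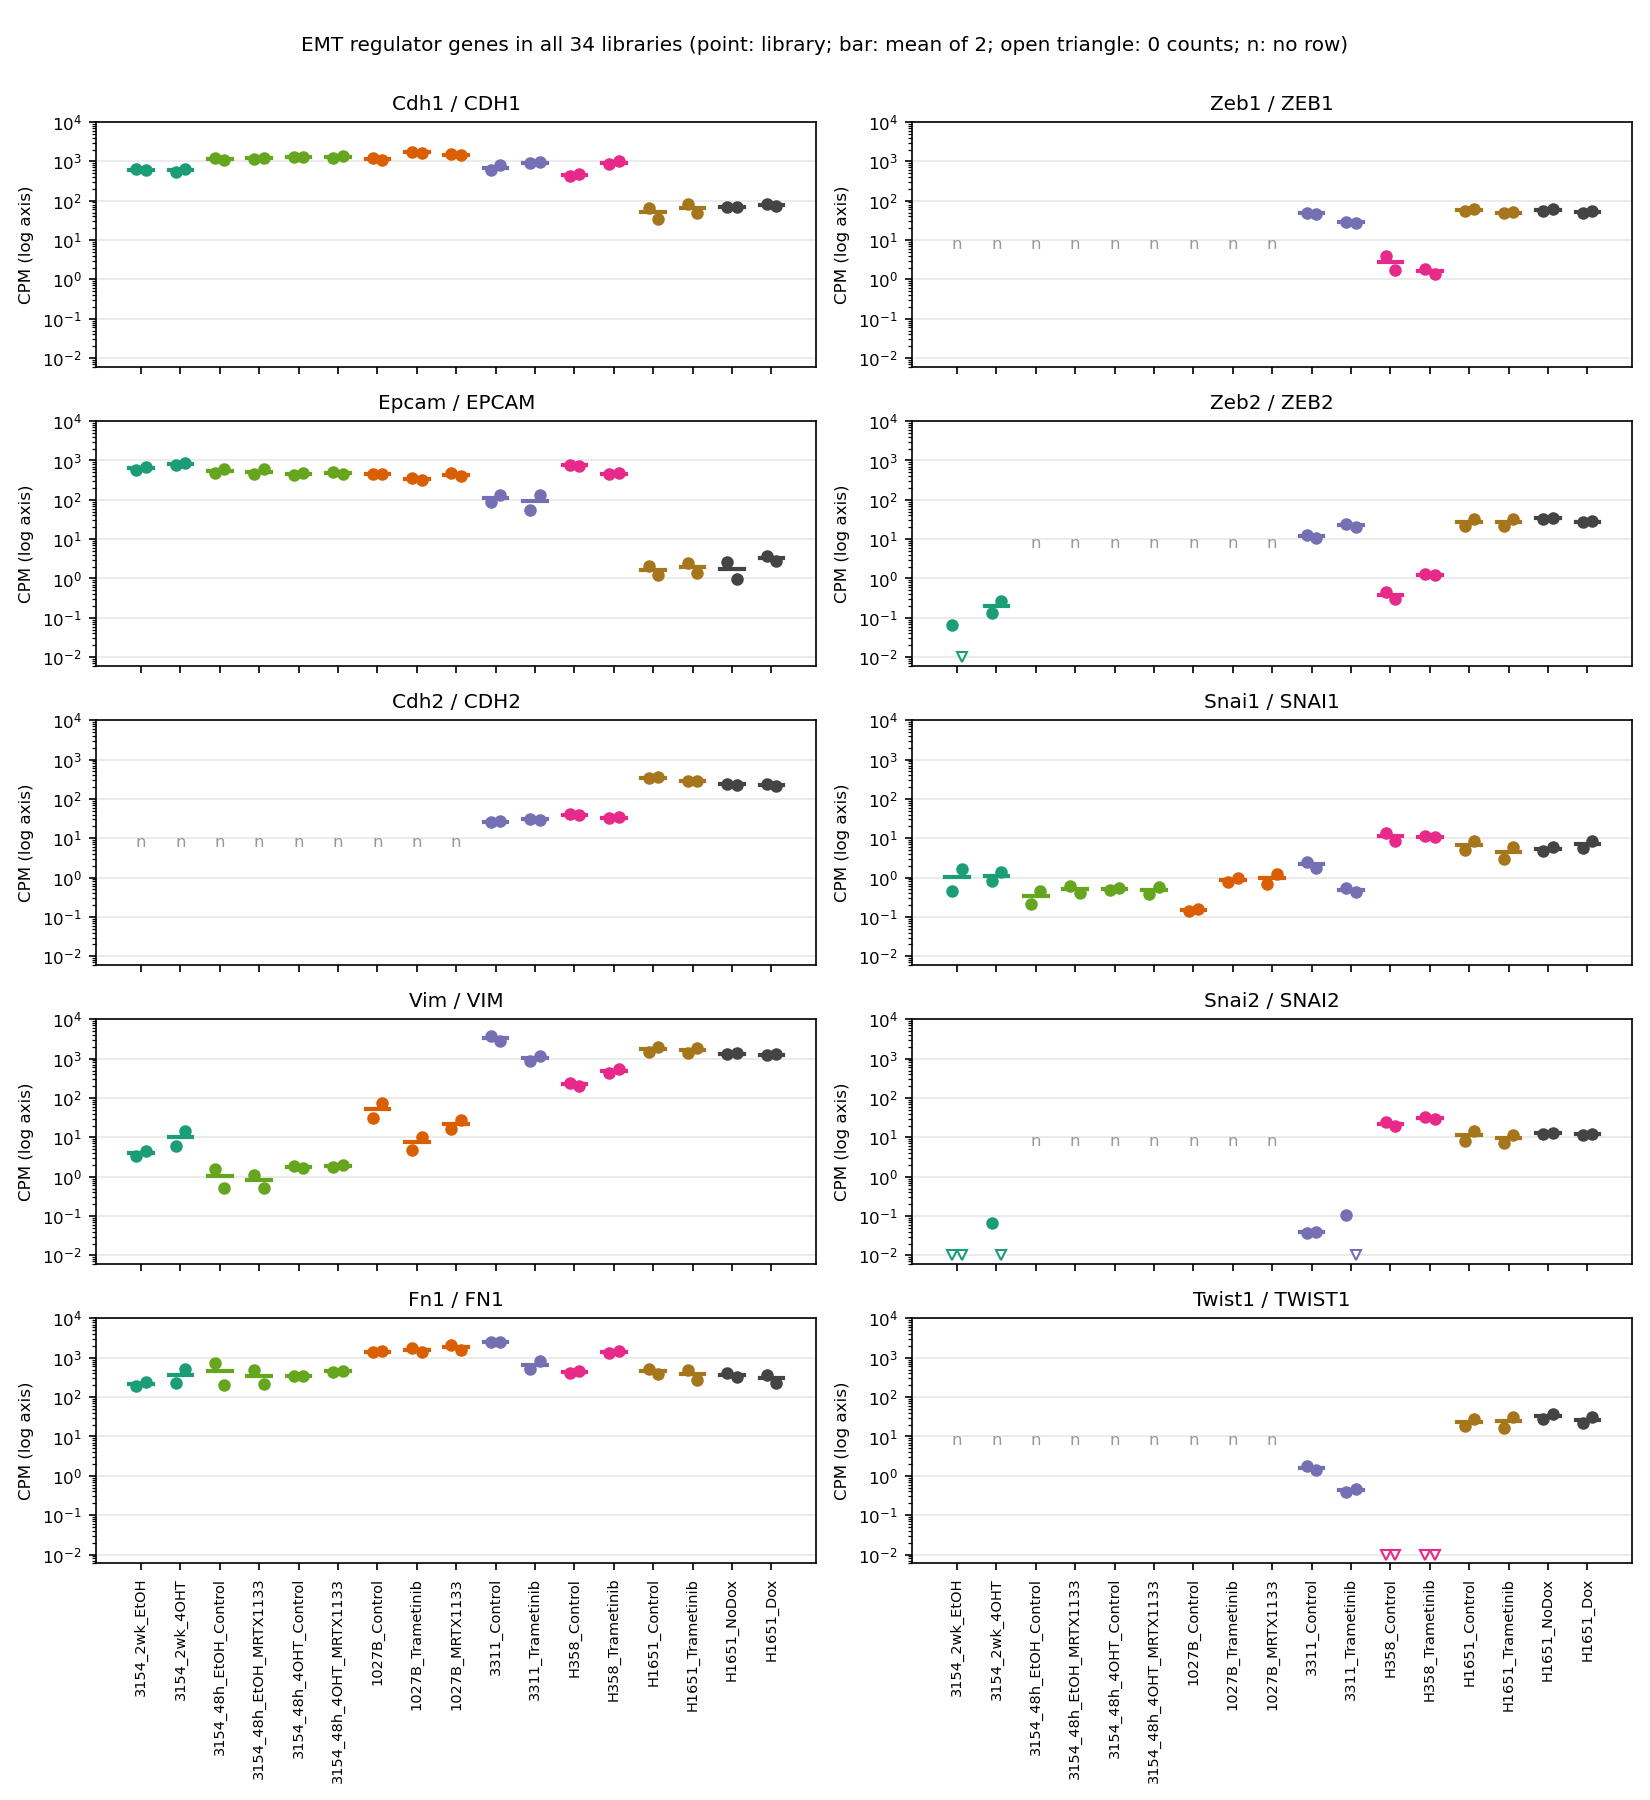
CPM (log axis) of the 10 genes in each library of the 17 groups, with the 2 libraries of a group as points and their mean as a bar, coloured by table. VIM, ZEB1, ZEB2 and TWIST1 were high and EPCAM was under 4 CPM in every H1651 library, and Vim spanned from 0.504 CPM in a 3154 library to 3813 CPM in a 3311 library.

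In 3311 cells trametinib was accompanied by lower Vim, Fn1, Zeb1, Snai1 and Twist1 and by higher Zeb2. Of 9 members tested, 6 were called at an adjusted p under 0.05 (edgeR quasi-likelihood test with Benjamini-Hochberg adjustment over all genes), 5 lower and 1 higher. The share called among all 15224 genes was 39%, with 19.6% lower and 19.4% higher. The median log2 fold change was -0.74 over the 9 members and 0.01 over all genes tested.

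Vim was at 3813 and 2771 CPM under vehicle and at 885 and 1154 CPM with trametinib. It fell in both treated libraries, with no overlap, by 1.69 on the log2 scale (SE 0.24, edgeR adjusted p = 0.00281). Fn1 was at 2498 and 2531 CPM under vehicle and at 509 and 827 CPM with trametinib. It too fell without overlap, by 1.91 on the log2 scale (SE 0.26, edgeR adjusted p = 0.00222). Cdh2 was at 25.2 and 26.9 CPM under vehicle and 31.5 and 29.5 CPM with trametinib, with a log2 fold change of 0.23 (SE 0.15) that was not called (edgeR adjusted p = 0.271). Fibronectin and vimentin transcripts therefore went one way while the N-cadherin transcript did not pass the test.

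Among the repressors, Zeb1 was at 49.9 and 45.0 CPM under vehicle and at 29.3 and 27.6 CPM with trametinib. It fell by 0.74 on the log2 scale (SE 0.14, edgeR adjusted p = 0.00840). Its paralogue Zeb2 moved in the opposite direction. Zeb2 was at 12.7 and 10.7 CPM under vehicle and at 24.9 and 20.3 CPM with trametinib, a log2 fold change of 0.95 (SE 0.21, edgeR adjusted p = 0.0117). Snai1 was at 2.56 and 1.75 CPM (69 and 44 reads) under vehicle and at 0.538 and 0.418 CPM (15 and 11 reads) with trametinib. This was a drop of 2.16 on the log2 scale (SE 0.45, edgeR adjusted p = 0.0105). Twist1 was at 1.78 and 1.43 CPM (48 and 36 reads) under vehicle and at 0.394 and 0.457 CPM (11 and 12 reads) with trametinib, and it fell by 1.91 on the log2 scale (SE 0.45, edgeR adjusted p = 0.0159). All 4 factors were without overlap between the groups, as were 74.5% of all genes tested, and Snai2 was not tested, with 1 and 1 reads under vehicle and 3 and 0 with trametinib. The calls on the 3 least abundant rested on single libraries: Twist1 was no longer called without vehicle replicate 1 (adjusted p = 0.0694), trametinib replicate 1 (0.106) or trametinib replicate 2 (0.0643), Snai1 without vehicle replicate 1 (0.0516), and Zeb2 without trametinib replicate 1 (0.0821).

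The epithelial genes did not pass the test in 3311 cells. Cdh1 was at 600 and 791 CPM under vehicle and 882 and 940 CPM with trametinib, a log2 fold change of 0.39 (SE 0.19, edgeR adjusted p = 0.135) without overlap. Epcam was at 86.0 and 133 CPM under vehicle and 54.6 and 130 CPM with trametinib, so its groups overlapped, and its log2 fold change was -0.25 (SE 0.39, edgeR adjusted p = 0.644). The Epcam value depended on single libraries: it ran from -1.01 to 0.25 when 1 library was left out, and was lowest without trametinib replicate 2.

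Markers of other cell types were low beside Vim and Fn1. Of 9 fibroblast markers 5 have a row, their summed level was 21.5 and 26.2 CPM under vehicle and 17.5 and 17.3 CPM with trametinib, and Col1a2 was at 0 in all 4 libraries. Of 7 leukocyte markers 3 have a row, and their sum was 9.55 and 15.7 CPM under vehicle and 21.8 and 28.6 CPM with trametinib. That sum was led by Csf1r at 24.0 CPM, while Ptprc, the pan-leukocyte marker, was at 0 in all 4 libraries. Of 6 endothelial markers 3 have a row, with sums of 3.31 and 4.18 CPM under vehicle and 2.83 and 2.36 CPM with trametinib. Whether these transcripts bear on the change in Zeb2 was not tested. Of the 8 epithelial markers 2 were called, both lower, and their sum was 7002 and 8989 CPM under vehicle and 5298 and 6962 CPM with trametinib.

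**Figure D2:**
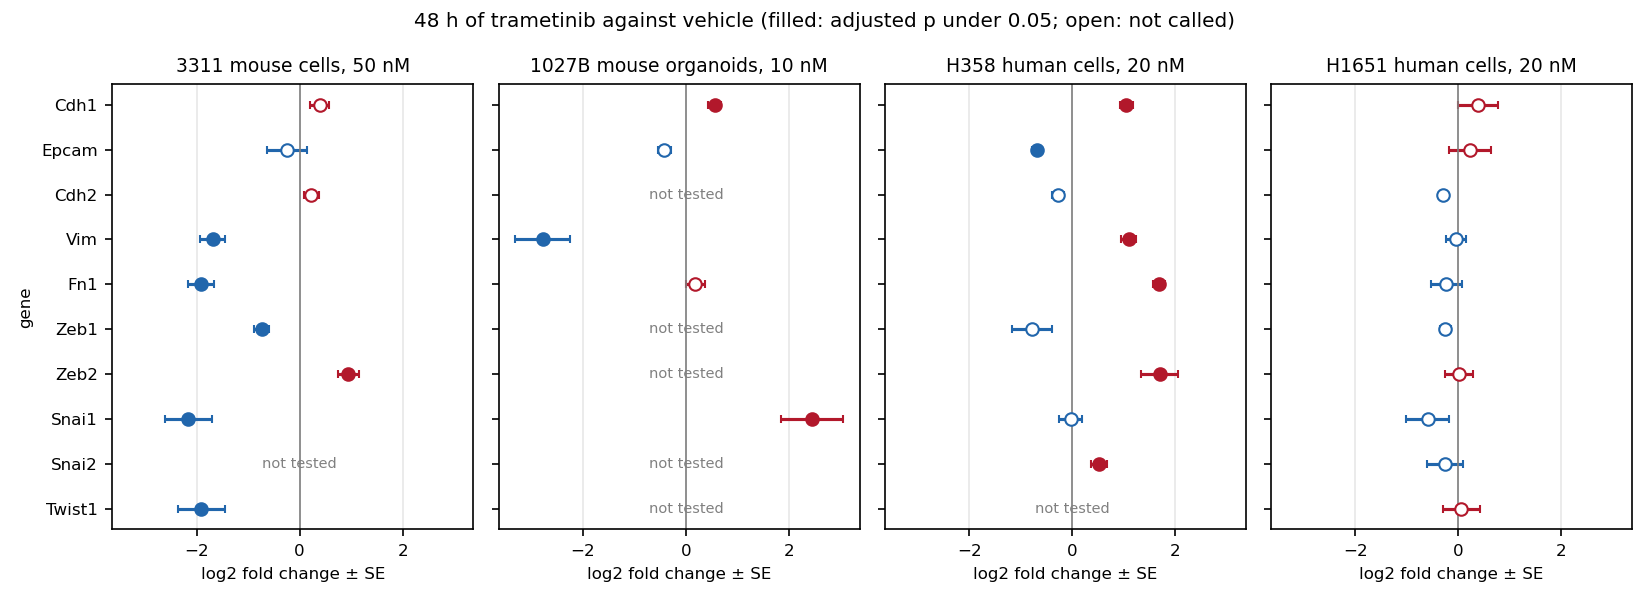
Fitted log2 fold change of each gene with trametinib against vehicle in the 4 models (x axis, with standard errors as bars; 2 libraries per group), filled where the adjusted p was under 0.05. Vim lies at -1.69 in 3311 cells and -2.78 in 1027B organoids and at 1.10 in H358 cells, and no gene was called in H1651 cells.

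In H358 cells, given 20 nM where the 3311 cells were given 50 nM, trametinib was accompanied by higher FN1, VIM, CDH1, ZEB2 and SNAI2 and by lower EPCAM. Of 9 members tested 6 were called, 5 higher and 1 lower. The share called among all 18972 genes was 46.8%, with 23.5% higher and 23.2% lower. The median log2 fold change was 0.52 over the 9 members and 0.02 over all genes tested.

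FN1 was at 416 and 456 CPM under vehicle and at 1297 and 1499 CPM with trametinib, and rose by a log2 fold change of 1.68 (SE 0.12, edgeR adjusted p = 3.26e-05). VIM was at 242 and 203 CPM under vehicle and at 421 and 538 CPM with trametinib, a rise of 1.10 on the log2 scale (SE 0.15, edgeR adjusted p = 0.000582). CDH2 was at 41.3 and 38.9 CPM under vehicle and 32.2 and 34.5 CPM with trametinib, and its log2 fold change of -0.27 was not called (SE 0.12, edgeR adjusted p = 0.0911). FN1 and VIM were thus higher in every treated library than in any control library.

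CDH1, which EMT factors repress, rose beside them. It was at 432 and 465 CPM under vehicle and at 833 and 1028 CPM with trametinib, a log2 fold change of 1.05 (SE 0.13, edgeR adjusted p = 0.000361). EPCAM was at 757 and 737 CPM under vehicle and at 459 and 470 CPM with trametinib, and fell by 0.68 on the log2 scale (SE 0.10, edgeR adjusted p = 0.000837). The 2 epithelial adhesion genes therefore moved in opposite directions in the same libraries, with no overlap for either, as for 75.9% of all genes tested.

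ZEB2 was at 0.466 and 0.299 CPM (18 and 10 reads) under vehicle and at 1.27 and 1.26 CPM (59 and 32 reads) with trametinib, a log2 fold change of 1.70 (SE 0.35, edgeR adjusted p = 0.00515). SNAI2 was at 24.7 and 19.1 CPM under vehicle and at 32.7 and 29.9 CPM with trametinib, a rise of 0.52 (SE 0.15, edgeR adjusted p = 0.0241) that was not called without vehicle replicate 2 (adjusted p = 0.221). ZEB1 was at 3.88 and 1.76 CPM under vehicle and 1.87 and 1.37 CPM with trametinib, so its groups overlapped, with a log2 fold change of -0.78 (SE 0.39, edgeR adjusted p = 0.128). Without vehicle replicate 2 ZEB1 was called, at -1.25 (edgeR adjusted p = 0.00718), and without vehicle replicate 1 it was at -0.13 (edgeR adjusted p = 0.812). SNAI1, with 13.7 and 8.66 CPM under vehicle and 11.2 and 10.8 CPM with trametinib, had a log2 fold change of -0.03 (SE 0.22, edgeR adjusted p = 0.932).

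Of 9 fibroblast markers, all with a row, the summed level in H358 was 50.6 and 41.8 CPM under vehicle, led by COL1A1 at 34.4 CPM, and 350 and 247 CPM with trametinib, led by LUM at 164 CPM. COL1A2, DCN and THY1 were at 0 in both vehicle libraries. The sum of the 8 epithelial markers was 5510 and 5224 CPM under vehicle and 3686 and 3666 CPM with trametinib, with 1 called higher and 3 lower. The leukocyte sum stayed between 1.73 and 2.23 CPM in all 4 libraries, with 6 of 7 markers listed. The endothelial sum was 13.9 and 15.6 CPM under vehicle and 28.5 and 28.3 CPM with trametinib, led by KDR. The part of these transcripts in the FN1 and VIM values was not tested.

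In H1651 cells, at the same dose and time, no member was called among 10 tested, by edgeR or by DESeq2, and 1 (CDH2) had an unadjusted p under 0.05. Over all 18277 genes tested edgeR called 0% and DESeq2 called 47 genes, while the unadjusted p was below 0.05 for 597. With replicate as a block edgeR called 1881 genes and 5 members (CDH1, CDH2, FN1, SNAI1 and ZEB1). The labels do not say that the replicate numbers pair libraries, and the values below are without the block. VIM was at 1508 and 1938 CPM under vehicle and at 1433 and 1885 CPM with trametinib, a log2 fold change of -0.05 (SE 0.19, edgeR adjusted p = 0.999). FN1 was at 519 and 389 CPM under vehicle and 493 and 279 CPM with trametinib, with a log2 fold change of -0.23 (SE 0.30, edgeR adjusted p = 0.999). CDH1 was at 66.6 and 34.8 CPM under vehicle and 83.4 and 49.1 CPM with trametinib, and CDH2 at 337 and 362 CPM against 292 and 278 CPM. CDH2 (-0.29, SE 0.09) and ZEB1 (-0.25, SE 0.10) were the 2 members of 10 whose groups did not overlap, beside 28.5% of all genes tested, and replicate 1 was above replicate 2 for CDH1 and FN1 and below it for VIM, TWIST1 and SNAI1 in both groups. The 10 genes of ERK output (Dusp4, Dusp5, Dusp6, Spry2, Spry4, Etv4, Etv5, Fosl1, Ccnd1 and Phlda1) had a median log2 fold change of -1.83 in H1651, with none called and 9 at an unadjusted p under 0.05, and of -3.97 in H358, where all 10 fell. The log2 fold change of CDH1 ran from -0.0466 to 0.93 when 1 library was left out, and was highest without vehicle replicate 1.

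The difference between the 2 human lines was tested in 1 fit of their 8 libraries, a test chosen after seeing the data. Of 9 members tested, 3 were called, all with a greater change in H358, where 19.3% of all 21188 genes were called, 9.43% in that direction and 9.86% in the other. The difference in log2 fold change (H358 minus H1651) was 1.94 for FN1 (SE 0.34, edgeR adjusted p = 0.00633), 1.18 for VIM (SE 0.26, edgeR adjusted p = 0.0155) and 1.72 for ZEB2 (SE 0.48, edgeR adjusted p = 0.0368). EPCAM (-0.86, SE 0.35, edgeR adjusted p = 0.122) and CDH1 (0.69, SE 0.43, edgeR adjusted p = 0.310) did not pass. EPCAM was called by DESeq2 (-0.88, adjusted p = 0.0253) and by edgeR without H1651 vehicle replicate 1 (-1.32, adjusted p = 0.0437) or H1651 trametinib replicate 2 (-1.21, adjusted p = 0.0313). VIM was not called without H358 vehicle replicate 2 (adjusted p = 0.0716). ZEB2 was not called without any one of the 4 H358 libraries, H1651 trametinib replicate 1 or H1651 vehicle replicate 2 (adjusted p from 0.0616 to 0.151).

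In 1027B organoids trametinib was accompanied by lower Vim and higher Cdh1 and Snai1, and the values with MRTX1133 lay on the same side of vehicle without passing the test. The trametinib dose was 10 nM and the MRTX1133 dose 20 nM. With trametinib 3 of 5 members tested were called, 2 higher and 1 lower, where 26.7% of all 14555 genes were called, 13.5% higher and 13.2% lower. With MRTX1133 no member was called by edgeR, 3 had an unadjusted p under 0.05 and DESeq2 called 2, where 6.27% of all genes were called. Both comparisons share the 2 vehicle libraries. The samples' replicate numbers paired in this table, and with replicate as a block 44.9% of genes were called for trametinib and 24.1% for MRTX1133.

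Vim was at 30.5 and 72.7 CPM under vehicle, 4.67 and 10.3 CPM with trametinib and 16.5 and 27.9 CPM with MRTX1133. With trametinib it fell by 2.78 on the log2 scale (SE 0.54, edgeR adjusted p = 0.0118). Its log2 fold change with MRTX1133 was -1.22 (SE 0.50, edgeR adjusted p = 0.205), and with the replicate block it was called at -1.14 (edgeR adjusted p = 0.000779). Without the block the MRTX1133 value was -1.71 when vehicle replicate 1 was left out and -0.44 when vehicle replicate 2 was, and neither was called. Replicate 2 was above replicate 1 in all 3 groups, and no treated library reached the lower vehicle library. Of all genes tested 67.1% were without overlap with trametinib and 52.5% with MRTX1133. The trametinib value ran from -3.46 without trametinib replicate 2 to -2.00 without vehicle replicate 2, and was not called without trametinib replicate 1 (-2.32, adjusted p = 0.0713).

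Cdh1 was at 1201 and 1113 CPM under vehicle, 1770 and 1636 CPM with trametinib and 1557 and 1408 CPM with MRTX1133. It rose with trametinib by a log2 fold change of 0.56 (SE 0.12, edgeR adjusted p = 0.0183). With MRTX1133 its log2 fold change was 0.36 (SE 0.12, edgeR adjusted p = 0.144), and it was called with the replicate block (0.36, edgeR adjusted p = 0.00443). The trametinib call on Cdh1 was lost without vehicle replicate 1 (adjusted p = 0.0576), vehicle replicate 2 (0.0834) or trametinib replicate 1 (0.0924). Epcam was at 464 and 451 CPM under vehicle, 366 and 320 CPM with trametinib and 477 and 392 CPM with MRTX1133. Its log2 fold change with trametinib was -0.42 (SE 0.13, edgeR adjusted p = 0.0572), and with the replicate block it was called at the same size (adjusted p = 0.00244). With MRTX1133 it was -0.07 (SE 0.13, edgeR adjusted p = 0.790).

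Snai1 had 3 and 3 reads under vehicle, 17 and 21 with trametinib and 18 and 25 with MRTX1133, which is 0.145 and 0.162, 0.757 and 0.979, and 0.669 and 1.25 CPM. The ratio of summed counts per depth was 5.64 with trametinib (95% exact counting interval 2.37 to 16.3) and 5.97 with MRTX1133 (2.53 to 17.2). These intervals cover counting error only. The edgeR adjusted p was 0.0259 with trametinib and 0.0543 with MRTX1133, and 0.0160 for MRTX1133 with the replicate block. The trametinib call was lost when any one of the 4 vehicle or trametinib libraries was left out (adjusted p from 0.0894 to 0.116). Fn1 was at 1365 and 1486 CPM under vehicle, 1799 and 1436 CPM with trametinib and 2154 and 1602 CPM with MRTX1133, and was not called with either (log2 fold changes 0.18, SE 0.18, and 0.40, SE 0.19).

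Set directly against each other at these unequal doses, the inhibitors gave no called member by edgeR or DESeq2, 2 members with an unadjusted p under 0.05, and 0% of all genes called, while 2357 genes had an unadjusted p below 0.05 and 712 were called by DESeq2. With the replicate block 14.1% of genes were called, among them Vim, higher with MRTX1133 than with trametinib (1.62, edgeR adjusted p = 0.00110), and Epcam (0.34 without the block and adjusted p = 0.0221 with it). Of the 8 epithelial markers 3 were called with trametinib, all lower, all 8 had a negative fitted change, and their sum was 8483 and 8435 CPM under vehicle and 5946 and 7034 CPM with trametinib, where Cdh1 was higher. Of 9 fibroblast markers 3 have a row in this table, and their sum lay between 0.581 and 1.79 CPM in all 6 libraries, below the level of Vim in each group. Of 6 endothelial markers 2 have a row, and their sum was 2.86 and 3.95 CPM under vehicle and 8.10 and 10.0 CPM with trametinib, led by Vwf. Of 7 leukocyte markers 4 have a row, with sums between 5.43 and 8.28 CPM. The part of these transcripts in the Vim values was not tested.

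**Figure D3:**
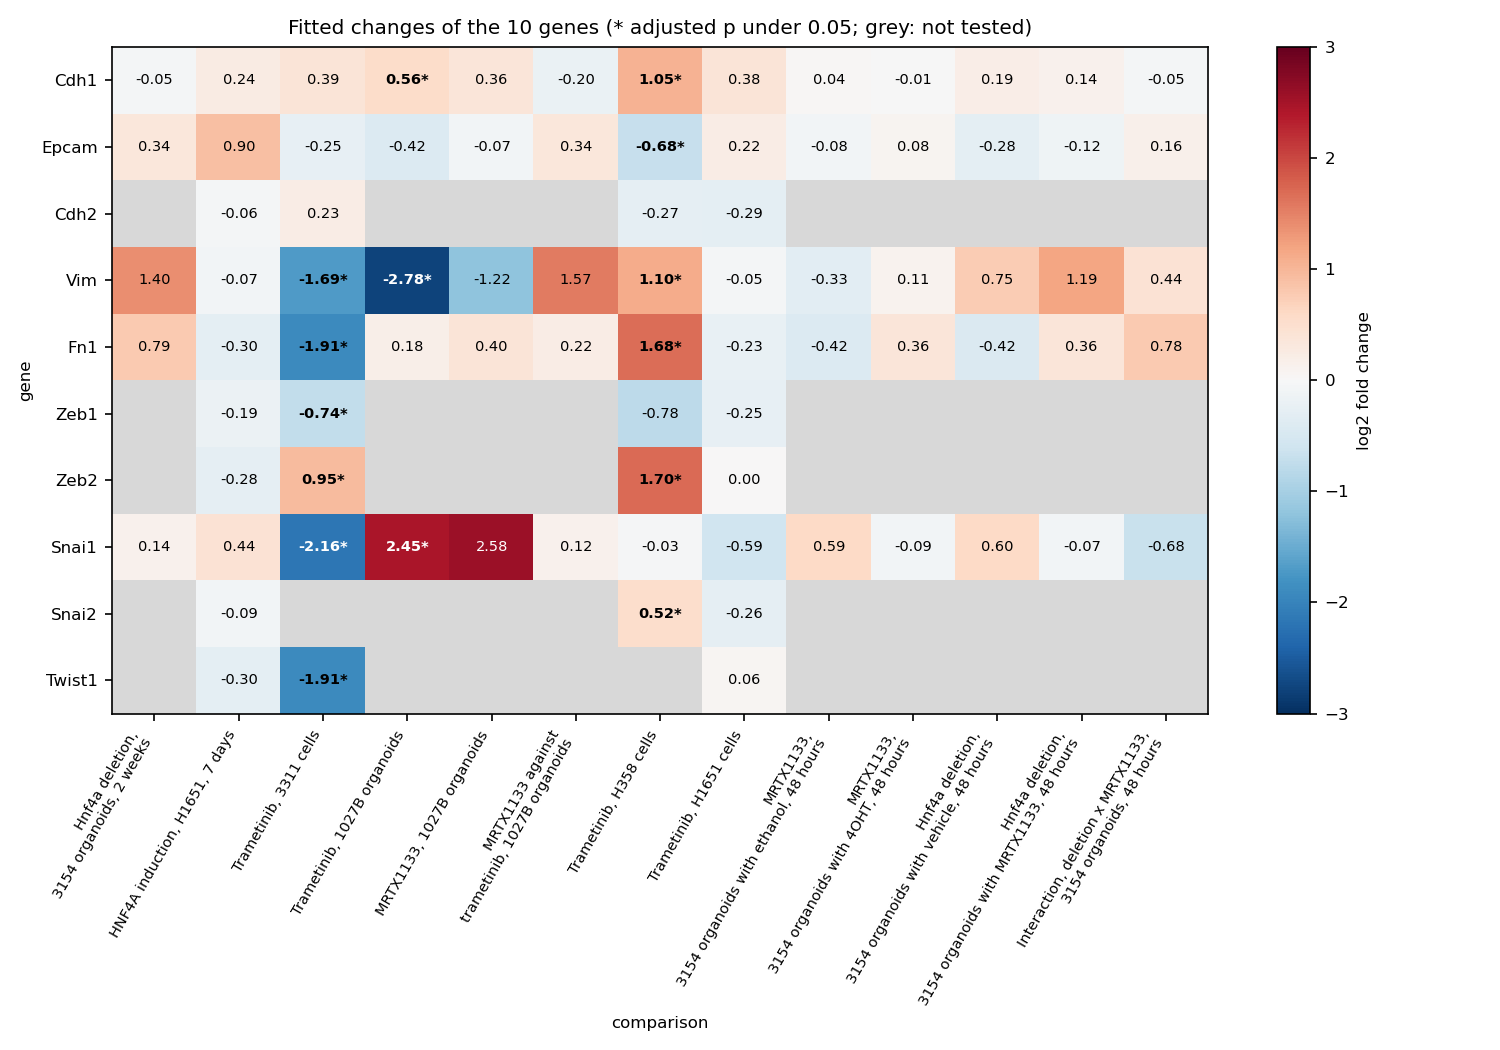
Fitted log2 fold change (colour and number) of each gene (rows) in the 13 comparisons (columns), with an asterisk where the adjusted p was under 0.05 and grey where a gene was not tested. The called values lie in the columns of trametinib in 3311, 1027B and H358, and Vim, Fn1 and Snai1 carry both signs among them or across the row.

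After Hnf4a deletion in 3154 organoids no member passed the test at either time, and Vim had the highest fitted change at 2 weeks and in both 48-hour comparisons. At 2 weeks 5 members were tested, 1 had an unadjusted p under 0.05 and DESeq2 called 1 (Vim), where 9.81% of all genes were called by edgeR. With replicate as a block edgeR called 3 members and 4563 genes at 2 weeks, and the labels do not say that the replicate numbers pair libraries. At 48 hours 5 members were tested, edgeR and DESeq2 called none, and 31% of all genes were called with vehicle and 27.7% with MRTX1133. The number of members at an unadjusted p under 0.05 was 0 with vehicle and 1 with MRTX1133.

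Vim was at 3.33 and 4.49 CPM with ethanol and 5.94 and 14.7 CPM with 4OHT at 2 weeks, a log2 fold change of 1.40 (SE 0.47, edgeR adjusted p = 0.120). At 48 hours it was at 1.56 and 0.504 CPM with ethanol and 1.82 and 1.65 CPM with 4OHT, both with vehicle (0.75, SE 0.50, edgeR adjusted p = 0.292). With MRTX1133 it was at 1.11 and 0.523 CPM with ethanol and 1.77 and 1.99 CPM with 4OHT (1.19, SE 0.51, edgeR adjusted p = 0.116). All 3 pairs of groups were without overlap, as were 61.8%, 66.8% and 67.7% of all genes tested in these comparisons. At 2 weeks the value ran from 0.61 without 4OHT replicate 2 to 1.91 without 4OHT replicate 1, and neither was called. At 48 hours leaving out ethanol and vehicle replicate 1 gave a called Vim, at 1.77 with vehicle (edgeR adjusted p = 0.0326) and 1.19 with MRTX1133 (0.0313), and leaving out replicate 2 of that group gave 0.15 with vehicle (0.794) and 1.19 with MRTX1133 (0.0301).

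Fn1 showed the spread of the ethanol libraries. At 48 hours it was at 737 and 201 CPM with ethanol and vehicle, 491 and 211 CPM with ethanol and MRTX1133, 350 and 349 CPM with 4OHT and vehicle, and 426 and 472 CPM with 4OHT and MRTX1133. Replicate 1 was above replicate 2 in both ethanol groups, as for Vim, and the 4OHT values lay between them. The log2 fold change of Fn1 on deletion was -0.42 with vehicle (SE 0.56, edgeR adjusted p = 0.594) and 0.36 with MRTX1133 (SE 0.56, edgeR adjusted p = 0.673). The value with vehicle ran from -1.08 to 0.79 when 1 library was left out, and was lowest without ethanol and vehicle replicate 2. At 2 weeks Fn1 was at 186 and 241 CPM with ethanol and 229 and 509 CPM with 4OHT (0.79, SE 0.37, edgeR adjusted p = 0.227). Its log2 fold change was 1.25 without 4OHT replicate 1 and 0.10 without 4OHT replicate 2.

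Cdh1 did not pass the test at either time. It was at 621 and 591 CPM with ethanol and 542 and 631 CPM with 4OHT at 2 weeks (-0.05, SE 0.13, edgeR adjusted p = 0.840). At 48 hours it was at 1248 and 1060 CPM with ethanol and 1320 and 1310 CPM with 4OHT, both with vehicle (0.19, SE 0.12, edgeR adjusted p = 0.284). Epcam was at 568 and 686 CPM with ethanol and 746 and 844 CPM with 4OHT at 2 weeks (0.34, SE 0.15, edgeR adjusted p = 0.199), and at 494 and 609 CPM against 435 and 471 CPM at 48 hours with vehicle (-0.28, SE 0.17, edgeR adjusted p = 0.241). These 2 pairs of Epcam groups did not overlap and lay in opposite directions, and neither difference was called. Of all genes tested 61.8% and 66.8% did not overlap in these comparisons. With MRTX1133 at 48 hours the Epcam groups overlapped, at 455 and 591 CPM with ethanol and 516 and 443 CPM with 4OHT (-0.12, SE 0.17). Snai1 stayed between 0.462 and 1.62 CPM at 2 weeks and between 0.210 and 0.612 CPM at 48 hours.

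MRTX1133 at 3 nM called no member in 3154 organoids by edgeR or DESeq2, and none had an unadjusted p under 0.05, with ethanol or with 4OHT. Of all 15458 genes 0.349% were called with ethanol and 4.64% with 4OHT. The member log2 fold changes ran from -0.42 (Fn1) to 0.59 (Snai1) with ethanol and from -0.09 (Snai1) to 0.36 (Fn1) with 4OHT. Cdh1 was at 1177 and 1201 CPM with MRTX1133 against 1248 and 1060 CPM with vehicle in the ethanol groups. When the fit held only the 2 groups given 4OHT, Fn1 was called (0.37, edgeR adjusted p = 0.0174). The interaction of deletion and MRTX1133 called 0% of all genes by edgeR, while 1150 had an unadjusted p below 0.05 and DESeq2 called 36, and no member by either tool or at an unadjusted p under 0.05. The fibroblast sum, over the 2 of 9 markers listed, stayed under 1 CPM in all 12 libraries of 3154 organoids. It was 0.115 and 0.201 CPM with ethanol and 0.710 and 0.816 CPM with 4OHT, both with MRTX1133 at 48 hours, where Col1a1 was called higher on deletion (1.89, edgeR adjusted p = 0.0286). The endothelial sum, over 2 of 6 markers listed and led by Vwf, was 2.45 and 1.85 CPM with ethanol and 4.49 and 4.51 CPM with 4OHT in the same groups, and 1 of the 2 markers was called higher. The leukocyte sum, over 4 of 7 markers listed, was 18.6 and 44.7 CPM with ethanol and 10.1 and 13.5 CPM with 4OHT at 2 weeks, and the part of these markers in the Vim values was not tested.

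HNF4A induction in H1651 called none of the 10 members by edgeR or DESeq2, where 1.42% of all 17351 genes were called. With replicate as a block edgeR called 7 members and 3048 genes, and the labels do not say that the replicate numbers pair libraries. Without the block CDH1 and ZEB2 had an unadjusted p under 0.05. CDH1 was at 67.9 and 67.1 CPM without and 84.7 and 75.3 CPM with doxycycline (0.24, SE 0.08, edgeR adjusted p = 0.264). ZEB2 was at 33.1 and 34.4 CPM without and 27.0 and 28.7 CPM with doxycycline (-0.28, SE 0.09, edgeR adjusted p = 0.235). EPCAM was at 2.56 and 0.993 CPM without and 3.81 and 2.74 CPM with doxycycline (0.90, SE 0.43, edgeR adjusted p = 0.458). CDH1, EPCAM, ZEB1, ZEB2 and SNAI2 did not overlap between the groups, the first 2 higher and the other 3 lower with doxycycline, beside 43.4% of all genes tested without overlap. VIM was at 1284 and 1362 CPM without and 1225 and 1293 CPM with doxycycline (-0.07, SE 0.07, edgeR adjusted p = 0.761). EPCAM was called without the replicate 1 library lacking doxycycline (1.72, edgeR adjusted p = 0.0414), and FN1 without doxycycline replicate 1 (-0.65, edgeR adjusted p = 0.0296). Leaving out replicate 2 of the same groups gave 0.36 for EPCAM (edgeR adjusted p = 0.882) and -0.0187 for FN1 (edgeR adjusted p = 0.985).

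Wider lists of EMT genes were read beside the members: 36 epithelial genes (junctions, keratins, splicing and Grhl and Ovol factors), 36 mesenchymal genes (matrix, contractile and protease genes), 14 other EMT transcription factors and 26 genes of the TGF-beta pathway. In 3311 cells trametinib called 15 of 32 epithelial genes, 10 higher and 5 lower, and 11 of 18 mesenchymal genes, 6 higher and 5 lower, against 39% of all genes. The list medians were 0.15 and 0.18, beside 0.01 for all genes tested. Cd44, the hyaluronan receptor, fell from 694 ± 3.57 to 171 ± 5.68 CPM. Acta2, smooth-muscle actin, rose from 0.251 ± 0.0395 to 1.34 ± 0.231 CPM. Among epithelial genes Mal2 rose from 54.6 ± 3.14 to 225 ± 6.55 CPM and Perp, a desmosomal protein, fell from 97.7 ± 5.53 to 28.5 ± 3.57 CPM. Ovol1, a zinc-finger factor known to favour the epithelial state, fell from 2.29 ± 1.61 to 0.265 ± 0.324 CPM. So neither list moved in one direction in these cells, while 5 of the 6 called members were lower.

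In H358 cells trametinib called 21 of 36 epithelial genes, 15 higher and 6 lower, and 18 of 30 mesenchymal genes, 12 higher and 6 lower, against 46.8% of all genes. The list medians were 0.23 and 0.26, beside 0.02. GRHL1, an epithelial transcription factor, rose from 22.2 ± 1.79 to 87.2 ± 4.56 CPM, and OCLN, the tight-junction protein occludin, from 24.3 ± 1.35 to 71.2 ± 12.6 CPM. KRT18, a simple-epithelial keratin, fell from 1149 ± 67.6 to 385 ± 46.2 CPM. LUM, a matrix proteoglycan that is also a fibroblast marker here, rose from 10.0 ± 3.21 to 164 ± 51.9 CPM, and COL3A1, a fibrillar collagen, from 0.572 ± 0.0771 to 6.13 ± 1.83 CPM. CNN1, a contractile protein of smooth muscle, had 1 read over both vehicle libraries and 497 with trametinib. Its ratio was 498, with a 95% exact counting interval from 88.9 to 19695 that covers counting error only. In H1651 cells none of the 32 epithelial and 35 mesenchymal genes tested was called, and 0 and 3 of them had an unadjusted p under 0.05. DESeq2 was not counted for these lists.

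In 1027B organoids trametinib called 11 of 36 epithelial genes, 5 higher and 6 lower, and 7 of 17 mesenchymal genes, 4 higher and 3 lower, against 26.7% of all genes. Tnc, the matrix protein tenascin C, fell from 2.22 ± 0.465 to 0.462 ± 0.402 CPM, and Vcan, the proteoglycan versican, from 4.59 ± 2.89 to 1.18 ± 0.477 CPM. Tgm2, a transglutaminase, rose from 144 ± 32.5 to 488 ± 94.5 CPM with trametinib and to 269 ± 33.8 CPM with MRTX1133. Dsc2, a desmosomal cadherin, rose from 91.1 ± 11.4 to 206 ± 23.0 and 159 ± 4.68 CPM, and Perp fell from 121 ± 2.90 to 45.9 ± 4.38 and 65.1 ± 4.24 CPM. MRTX1133 called 3 of 36 epithelial genes, 1 higher and 2 lower, and 3 of 17 mesenchymal genes, all higher, against 6.27% of all genes. Mmp14, a membrane-bound matrix protease, and Sparc, a matrix glycoprotein, were the other mesenchymal genes called with MRTX1133, at 36.7 ± 1.69 and 72.0 ± 0.491 CPM and at 362 ± 49.5 and 565 ± 38.2 CPM under vehicle and MRTX1133. The fall of Vim with trametinib thus stood beside mesenchymal genes called in both directions.

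After Hnf4a deletion few mesenchymal genes were detected. At 2 weeks 2 of 14 tested were called, both higher, and at 48 hours 5 of 12 with vehicle (4 higher, 1 lower) and 8 of 12 with MRTX1133 (6 higher, 2 lower), against 9.81%, 31% and 27.7% of all genes. Nes, the intermediate filament nestin, rose from 0.407 ± 0.250 to 12.5 ± 3.79 CPM at 2 weeks and from 0.588 ± 0.239 to 7.60 ± 0.516 CPM at 48 hours with vehicle. Mmp9, a gelatinase, rose from 0.112 ± 0.159 to 3.17 ± 1.51 CPM and from 0.378 ± 0.238 to 3.32 ± 0.673 CPM. Hmga2, a chromatin protein known to act upstream of Snail and Twist, rose from 13.0 ± 1.74 to 63.2 ± 17.1 CPM at 2 weeks and from 3.49 ± 0.185 to 11.2 ± 0.998 CPM at 48 hours, while Snai1 was not called at either time. Of 36 epithelial genes 4 were called at 2 weeks, all lower, 14 at 48 hours with vehicle (6 higher, 8 lower) and 11 with MRTX1133 (8 higher, 3 lower). Dsp, the desmosomal protein desmoplakin, fell from 596 ± 79.3 to 331 ± 34.2 CPM at 2 weeks. At 48 hours with vehicle Ovol1 fell from 65.6 ± 1.72 to 14.5 ± 0.767 CPM and Cldn3, a tight-junction claudin, from 185 ± 5.46 to 63.4 ± 14.9 CPM, while Ovol2, a paralogue of Ovol1, rose from 2.20 ± 0.917 to 6.86 ± 1.23 CPM.

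With HNF4A induction in H1651 the called genes were few. The 2 of 33 epithelial genes called were both higher: KRT8 went from 2973 ± 23.2 to 4038 ± 250 CPM and KRT18 from 1371 ± 26.5 to 1831 ± 102 CPM. The 4 of 35 mesenchymal genes called were all lower, among them MMP2, a gelatinase, from 56.3 ± 15.6 to 22.1 ± 1.6 CPM, COL5A2, a fibrillar collagen, from 104 ± 10.2 to 44.9 ± 4.21 CPM, and ACTA2 from 11.2 ± 0.498 to 5.19 ± 0.338 CPM. The share over all genes was 1.42%. The list medians were 0.18 for epithelial and -0.29 for mesenchymal genes, beside -0.0037 for all genes tested. The summed fibroblast markers, which share collagens with the mesenchymal list, were 666 and 760 CPM without and 414 and 456 CPM with doxycycline, led by COL3A1.

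Among the other EMT factors, Sox9, a factor of distal lung progenitors, fell with trametinib from 107 ± 21.9 to 9.12 ± 0.0347 CPM in 3311 cells and from 94.0 ± 16.2 to 24.7 ± 1.89 CPM in 1027B organoids. Hmga2 fell in 3311 cells from 112 ± 7.31 to 41.7 ± 9.71 CPM and HMGA2 in H358 from 76.8 ± 18.1 to 22.3 ± 2.28 CPM. Prrx2, a homeobox factor of mesenchyme, fell in 1027B organoids from 62.5 ± 7.89 to 15.6 ± 2.42 CPM with trametinib and to 27.6 ± 8.71 CPM with MRTX1133. Sox4 rose in 1027B organoids from 247 ± 17.8 to 495 ± 74.4 CPM with trametinib and SOX4 in H358 from 346 ± 34.2 to 716 ± 73.4 CPM. The counts called were 5 of 9 tested in 3311 (2 higher, 3 lower), 4 of 7 in 1027B with trametinib (2 and 2) and 6 of 9 in H358 (2 higher, 4 lower), against 39%, 26.7% and 46.8% of all genes. With MRTX1133 in 1027B 3 of 7 were called (1 higher, 2 lower), against 6.27%. On deletion 1 of 8 was called at 2 weeks (higher), against 9.81%. At 48 hours it was 5 of 8 with vehicle (4 higher, 1 lower) and 2 of 8 with MRTX1133 (1 and 1), against 31% and 27.7%.

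In the TGF-beta list the ligand Tgfb2 rose with trametinib from 1.86 ± 0.690 to 14.0 ± 6.02 CPM in 3311 cells and from 3.35 ± 1.22 to 44.4 ± 16.7 CPM in 1027B organoids, where it was at 27.7 ± 6.18 CPM with MRTX1133. TGFB2 rose in H358 from 30.7 ± 4.41 to 139 ± 6.02 CPM. After Hnf4a deletion Tgfb2 rose from 1.72 ± 0.293 to 6.82 ± 2.33 CPM at 2 weeks and from 2.42 ± 1.04 to 11.3 ± 0.428 CPM at 48 hours with vehicle. The ligand Tgfb3 rose from 0.195 ± 0.0422 to 1.42 ± 0.00917 CPM at 2 weeks, from 1.51 ± 0.710 to 6.53 ± 0.146 CPM at 48 hours with vehicle and, with trametinib, from 1.39 ± 0.505 to 7.24 ± 2.73 CPM in 1027B organoids. Tgif1, a co-repressor of the pathway, fell in 3311 cells from 193 ± 30.9 to 49.3 ± 3.06 CPM. Itgb6, whose integrin activates latent TGF-beta, rose in 1027B organoids with MRTX1133 from 127 ± 20.8 to 302 ± 55.4 CPM, and ITGB6 fell in H358 with trametinib from 122 ± 18.2 to 54.0 ± 4.85 CPM. Over the list 14 of 25 genes were called in 3311 (6 higher, 8 lower), 8 of 24 in 1027B with trametinib (5 and 3), 15 of 25 in H358 (7 and 8) and 7 of 24 at 2 weeks of deletion (all higher), against 39%, 26.7%, 46.8% and 9.81% of all genes. At 48 hours of deletion 10 of 22 were called with vehicle (9 higher, 1 lower) and 11 of 22 with MRTX1133 (8 higher, 3 lower), against 31% and 27.7%. With MRTX1133 in 1027B 4 of 24 were called (2 higher, 2 lower), against 6.27%.

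**Figure D4:**
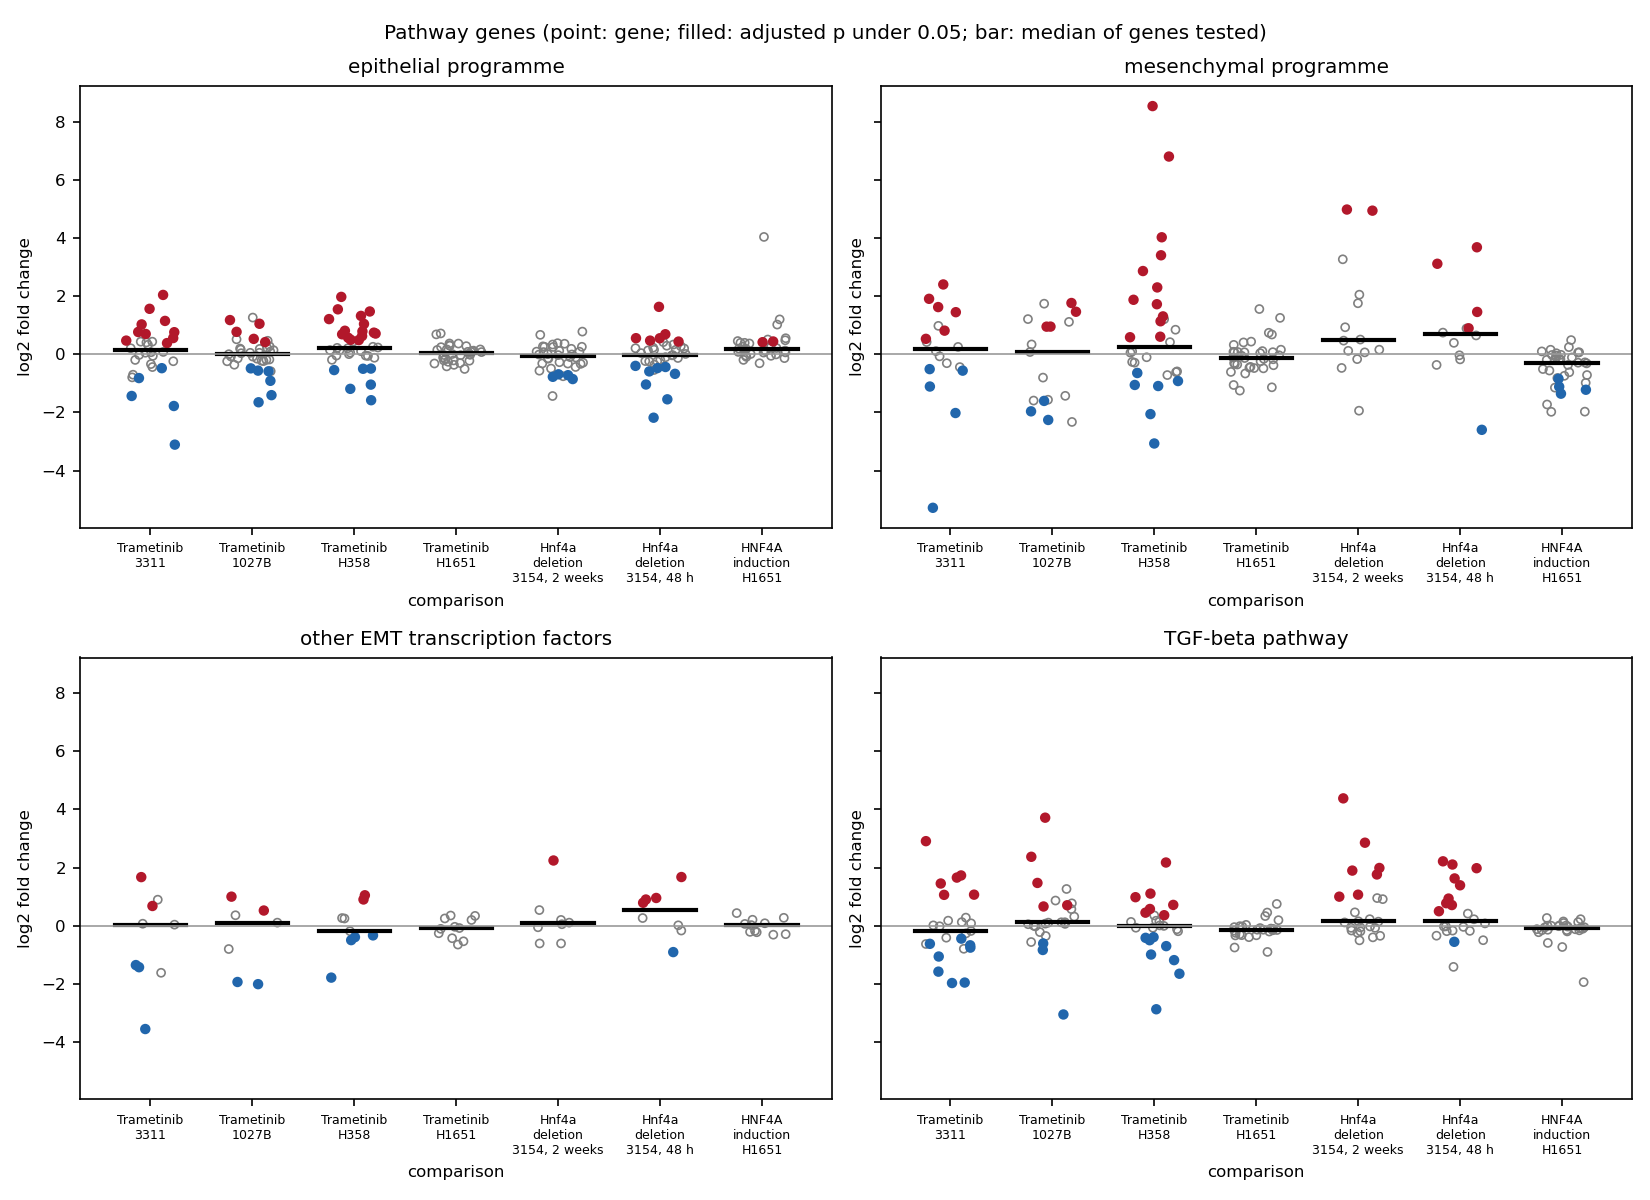
Fitted log2 fold change (y axis) of each tested gene of the 4 wider lists in 7 comparisons (x axis), filled red or blue where called higher or lower, with the list's median as a bar. Called genes lie on both sides of 0 for trametinib in 3311, 1027B and H358, and no listed gene was called for trametinib in H1651.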

How the data were processed

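Gene-level read counts, not normalized, were deposited by the authors in 7 tables with gene names, made, per the submitters' processing notes, with cutadapt 3.5, STAR 2.7.6a and featureCounts 1.6.3. The builds named there (mm10, mm39 and hg38) are not tied to tables, and the counting strand is not given in the sources used here, so reads of overlapping genes cannot be told apart. In GENCODE M21 (GRCm38) 2.50% of the exon bases of Fn1, 1.93% of Zeb1 and 3.30% of Zeb2 are shared with another gene and 0% of the other 7. RNA was taken with Trizol and columns and made into stranded poly(A) libraries, per the labels' protocols. Every library was mapped to its group by its title.

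Each table was fitted alone in edgeR 4.0.16 (R 4.3.3) on the counts as deposited, with filterByExpr, TMM scaling and the quasi-likelihood F-test. The p-values were adjusted by Benjamini-Hochberg over all genes tested, and genes with an adjusted p under 0.05 were called. The 3 groups of 1027B and the 4 groups of the 48-hour 3154 table shared 1 estimate of spread. Standard errors are the log2 fold change divided by the square root of F. CPM used the TMM-adjusted library sizes of the genes tested, and RPKM used exon lengths from GENCODE M21. Members and genes named from the wider lists with at most 3 reads per library in only one group also have a ratio of summed counts per depth. These ratios carry 95% exact (Clopper-Pearson) intervals. The fit was tested on simulated data.

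The members and the gene lists were chosen with earlier results of these data known. Named genes are the 10 members and, from each wider list, up to 3 called genes with the greatest change per comparison and at least 1 CPM in the higher group. One gene that this rule names, and 1 allele of the mouse models, are not reported here. Alternatives were RLE and upper-quartile scaling, no count filter, at least 10 counts in every library, DESeq2 1.42.0, a replicate block, only the 2 groups compared, and each library left out, where a lone library is assumed to vary like the other groups. In the 1027B table the differences between replicates 1 and 2 correlated across genes by 0.299, 0.456 and 0.508 over the 3 pairs of groups, so the numbers were taken to pair the samples from the data, not from the labels.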

Additional observations from a re-analysis of the deposited data

Results flagged for a closer look

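A test of the difference between H358 and H1651 gave a greater trametinib response in H358 for VIM (1.18 on the log2 scale), FN1 (1.94) and ZEB2 (1.72). The test was chosen after seeing the data. The calls of VIM and ZEB2, but not that of FN1, were lost when certain single libraries were left out.

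The other results listed here moved one way in every library of one experiment and the opposite way in every library of another under the same kind of contrast, and these differences between experiments were not tested. With trametinib, Vim had a log2 fold change of -1.69 in 3311 cells and -2.78 in 1027B organoids, and VIM had 1.10 in H358 cells. Fn1 was at -1.91 in 3311 cells and FN1 at 1.68 in H358. Snai1 was at -2.16 in 3311 cells and 2.45 in 1027B organoids, where vehicle libraries held 3 reads each. Cdh2 was at 0.23 in 3311 cells, and CDH2 at -0.27 in H358 and -0.29 in H1651, none of them called. On Hnf4a deletion in 3154 organoids, Epcam was at 0.34 at 2 weeks and -0.28 at 48 hours with vehicle, neither called. The doses were 50 nM in 3311, 10 nM in 1027B and 20 nM in the human lines.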

How the results depend on the processing

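Over 1099 values of single members under the alternatives, 983 kept their direction and their side of the threshold, 21 lost and 41 gained a call, and 54 changed sign. With DESeq2, 1 member was called at 2 weeks of Hnf4a deletion and 2 with MRTX1133 in 1027B, against 0 each with edgeR, and with only the 2 groups compared 1 was called for MRTX1133 with 4OHT. With the replicate block, 3 members were called at 2 weeks of deletion, 7 with doxycycline, 3 with MRTX1133 in 1027B, 2 for MRTX1133 against trametinib and 5 with trametinib in H1651 (CDH1, CDH2, FN1, SNAI1 and ZEB1), against 0 each without it, and 8 in H358 against 6, with CDH2 and ZEB1 gained. In every table the libraries share only a number, and no label pairs them. Outside 1027B the correlation of replicate differences was 0.490 (3154, 2 weeks), 0.415 (doxycycline), 0.166 (3311), 0.406 (H358) and 0.732 (H1651). It ran from -0.368 to 0.675 in the 48-hour 3154 table. A table of 2 groups gives a single correlation, and its numbers were not taken to pair. The H1651 value was nevertheless above all 3 of 1027B (0.299, 0.456 and 0.508). Leaving out 1 library gave 0 to 1 members called at 2 weeks of deletion, with doxycycline, with trametinib in H1651 and in both 48-hour deletion comparisons, 0 to 3 with trametinib in 1027B, 4 to 6 in 3311 and 1 to 4 for the difference between the human lines.

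Signs changed with upper-quartile scaling for Cdh1 at 2 weeks (0.0455) and for MRTX1133 with 4OHT (0.0370), for SNAI1 in H358 (0.0236) and for Snai1 on deletion with MRTX1133 (0.0137), with at least 10 counts in every library for Cdh1 with MRTX1133 and 4OHT (0.00378), and with DESeq2 for ZEB2 in H1651 with trametinib (-0.000413). Ranges that crossed 0 when 1 library was left out were, at 2 weeks of deletion, Snai1 (-0.55 to 1.27) and Cdh1 (-0.16 to 0.0554); with doxycycline CDH2 (-0.15 to 0.0266); with trametinib in 3311 Epcam (-1.01 to 0.25) and in H358 SNAI1 (-0.33 to 0.31). In 1027B they were Epcam with MRTX1133 (-0.22 to 0.0731), and Snai1 (-0.38 to 0.52) and Fn1 (-0.0123 to 0.41) between the inhibitors. In H1651 with trametinib they were TWIST1 (-0.49 to 0.46), ZEB2 (-0.30 to 0.34), SNAI2 (-0.63 to 0.21), VIM (-0.27 to 0.15), CDH1 (-0.0466 to 0.93), EPCAM (-0.25 to 0.65) and FN1 (-0.70 to 0.12). In 3154 at 48 hours with MRTX1133 and ethanol they were Fn1 (-1.19 to 0.80), Vim (-0.9999 to 0.70), Epcam (-0.28 to 0.0815) and Cdh1 (-0.0714 to 0.16), and with 4OHT Cdh1 (-0.0778 to 0.0680), Snai1 (-0.37 to 0.15) and Epcam (-0.0288 to 0.19). On deletion they were Fn1 with vehicle (-1.08 to 0.79), and with MRTX1133 Snai1 (-0.37 to 0.27), Fn1 (-0.14 to 1.10) and Epcam (-0.29 to 0.0706). For the interaction they were Fn1 (-0.44 to 1.54), Vim (-0.59 to 1.11), Epcam (-0.000600 to 0.36) and Cdh1 (-0.17 to 0.0662), and between the human lines ZEB1 (-0.96 to 0.19) and CDH2 (-0.0128 to 0.0923). None of these was called by edgeR with all libraries and no block, and the cause was not tested.

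Over all genes DESeq2 called 2311 at 2 weeks of deletion against 1421, 451 with doxycycline against 247, 1636 with MRTX1133 in 1027B against 913, and 330 and 1342 with MRTX1133 in 3154 with ethanol and 4OHT against 54 and 717. The replicate block called 4563 at 2 weeks, 3048 with doxycycline, 1881 with trametinib in H1651, and in 1027B 6540 with trametinib against 3880, 3515 with MRTX1133 and 2050 between the inhibitors. With only the 2 groups compared, MRTX1133 called 0 genes with ethanol and 3932 with 4OHT, deletion with vehicle 3154 against 4795, and the inhibitors in 1027B 1 against 0. Without a count filter trametinib in H1651 called 2. Leaving out 1 library gave 395 to 2790 genes at 2 weeks of deletion, 232 to 412 with doxycycline, 3772 to 6298 in 3311, 1336 to 3461 with trametinib and 138 to 629 with MRTX1133 in 1027B, 0 to 193 in H1651, 2177 to 3667 between the human lines against 4087, and in 3154 at 48 hours 0 to 309 and 0 to 1638 with MRTX1133 and 1668 to 5964 and 1745 to 5828 on deletion. Few reads limit Snai1, Twist1, Zeb2 and Snai2 in the mouse models.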
